A study of Mus musculus with 13 samples.

Results

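The 8 genes described here serve the folding of myosin and the turnover of the sarcomere, the contractile unit of muscle. They are Unc45b, Smyd1, Smyd2, Trim63, Trim54, Trim55, Fbxo32 and Bag3. They were taken by symbol for their known roles, with earlier results of these data already known, and they are 8 of the 55471 genes in the deposited count table. All 8 passed the filter on low counts that left 15000 genes for testing.

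The values come from bulk RNA-seq of whole mouse hearts in 3 groups. WT control hearts (n = 5) came from untreated wild-type mice. R502W control hearts (n = 4) came from untreated mice with the R502W change in cardiac myosin-binding protein C (cMyBP-C), a thick-filament protein encoded by Mybpc3. R502W mavacamten hearts (n = 4) carried the same change, and the mice were given mavacamten, a small-molecule inhibitor of cardiac myosin, at 2.5 mg/kg/day in the drinking water over 21 weeks. No wild-type mice given the drug were analysed here, so a drug effect can be read only on the R502W background. Zygosity and sex were not in the labels. Nor did the labels state that the libraries of a group were different animals, and the p-values therefore cover only library-to-library spread, part of which may be technical. An age of 24 weeks stood in the design text, whereas the extraction protocol named hearts aged 3 and 18 weeks.

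The libraries held 15350622 to 19361103 expected counts each, with WT control (15420583 to 18218404) and R502W mavacamten (16001651 to 17520706) inside that range. Levels are in CPM, the depth-normalised count on TMM-scaled library sizes, given as mean ± SD, and differences are log2 fold changes ± SE from edgeR. A gene was called changed where its Benjamini-Hochberg adjusted p over all 15000 genes was under 0.05. The labelled tissue was checked against 6 cardiomyocyte markers, whose summed level was 36620 to 68650 CPM over the 13 libraries. The 13 skeletal muscle markers summed to between 3.86 and 12.96 CPM, with Myf6 at 0 in every library. Some libraries stood apart in other tissues' genes. The atrial gene Bmp10 was under 10 CPM in WT control 3, R502W control 1 and R502W mavacamten 3, the fat gene Adipoq was over 50 CPM in WT control 2 and 3, R502W control 1 and R502W mavacamten 4, and the lymphocyte and thymus markers summed to 352.6 CPM in WT control 2.

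Myosin heavy chain does not fold unaided. Its motor domain is handed to UNC45B, a muscle co-chaperone that works with the chaperone HSP90, and the lysine methyltransferase SMYD1 binds myosin and is required for sarcomere assembly, while SMYD2 methylates HSP90 and is held near titin. At the other end of the protein's life stand the ubiquitin ligases. TRIM63, TRIM54 and TRIM55, also called MuRF1, MuRF3 and MuRF2, sit on sarcomeric structures and mark proteins for the proteasome, and FBXO32 (atrogin-1) is the substrate-binding subunit of a further ligase best known from muscle atrophy. BAG3 is a co-chaperone that joins HSP70 to small heat shock proteins and sends damaged Z-disc proteins, filamin among them, to autophagy.

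The start regions of 6 of the 8 genes were in the RefSeq promoter table of mouse build GRCm38.p6, from 250 bases before to 50 bases after the annotated start; Trim55 and Fbxo32 were not. Those of Trim63, Bag3 and Unc45b are shown because these genes have known ties to the glucocorticoid and FOXO pathways, to the heat shock response and to myosin folding, which the lists of related genes below cover. Each is written 5′ to 3′ on the gene's own strand, with matches to the searched motifs in capitals. The motifs were chosen after the sequences had been looked at.
Trim63 (chr4:134314870-134315169, plus strand): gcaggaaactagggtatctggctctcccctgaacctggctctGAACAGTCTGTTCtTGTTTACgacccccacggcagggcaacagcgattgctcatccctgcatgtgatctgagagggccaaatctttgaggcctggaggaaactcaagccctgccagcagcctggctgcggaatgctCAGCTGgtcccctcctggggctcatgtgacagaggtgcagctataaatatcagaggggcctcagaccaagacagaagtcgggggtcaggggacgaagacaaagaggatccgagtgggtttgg
Bag3 (chr7:128523333-128523632, plus strand): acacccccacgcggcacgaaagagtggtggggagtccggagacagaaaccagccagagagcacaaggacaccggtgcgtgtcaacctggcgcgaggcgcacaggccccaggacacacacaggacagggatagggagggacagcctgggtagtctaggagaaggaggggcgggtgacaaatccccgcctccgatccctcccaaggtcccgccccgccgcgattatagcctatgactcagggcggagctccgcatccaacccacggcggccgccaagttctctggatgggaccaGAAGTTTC
Unc45b (chr11:82911003-82911302, plus strand): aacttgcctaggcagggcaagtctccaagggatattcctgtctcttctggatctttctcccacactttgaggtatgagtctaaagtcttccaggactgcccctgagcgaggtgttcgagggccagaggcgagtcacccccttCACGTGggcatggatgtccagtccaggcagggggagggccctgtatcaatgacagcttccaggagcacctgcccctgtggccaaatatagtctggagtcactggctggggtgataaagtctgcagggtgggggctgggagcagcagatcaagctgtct

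In the Trim63 window the capitals mark, in order, a glucocorticoid response element core (the half-sites GAACA and TGTTC with 3 bases between them) at bases -208 to -196 from the start, a forkhead motif (GTAAACA, here on the reverse strand) at -194 to -188 and a myogenic E-box (CAGCTG) at -72 to -67. None of the 3 overlaps another, and both strands were searched. Over all 32544 promoters of this length in the table, 0.0553% held the glucocorticoid core, 3.66% the forkhead motif and 16.4% the myogenic E-box. The Bag3 window ends in a heat shock element core (GAANNTTC) at bases 42 to 49 after the start, a motif that 7.89% of promoters held. The Unc45b window has a clock-type E-box (CACGTG) at -108 to -103, held by 7.17% of promoters, and its RefSeq start lies inside the gene span of the GENCODE M21 annotation. A match describes letters in the window and does not show that a factor binds there.

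Per kilobase of exon, a scale that allows for length when different genes are set side by side, Trim54 stood highest and Fbxo32 lowest. The length was that of all annotated exons of a gene together, not of the transcript expressed in these hearts. The order by mean over the 13 libraries was Trim54 (133.3 CPM per kb), Smyd1 (95.1), Bag3 (85.5), Unc45b (54.7), Trim63 (51.9), Smyd2 (27.0), Trim55 (24.4) and Fbxo32 (19.6). Trim54 was above Smyd1, Bag3 above Unc45b and Trim63 above Smyd2 in 13 of 13 libraries each. Over the libraries the ranges of Trim54 (100.6 to 170.4 CPM per kb) and Smyd1 (64.65 to 112.9) still overlapped. Smyd1 and Bag3 kept their order in 10 of 13, Unc45b and Trim63 in 10 of 13, Smyd2 and Trim55 in 9 of 13 and Trim55 and Fbxo32 in 12 of 13, and in these pairs the ranges over libraries overlapped. Within the MuRF family the shares differed between the 3 groups by less than the SD between libraries. Trim54 held 63.5% ± 2.11 of the family's CPM per kb in WT control, 63.8% ± 2.08 in R502W control and 63.2% ± 2.91 in R502W mavacamten. Trim63 held 25.0%, 24.7% and 24.7%, and Trim55 11.5%, 11.4% and 12.1%, in the same order of groups.

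**Figure D1:**
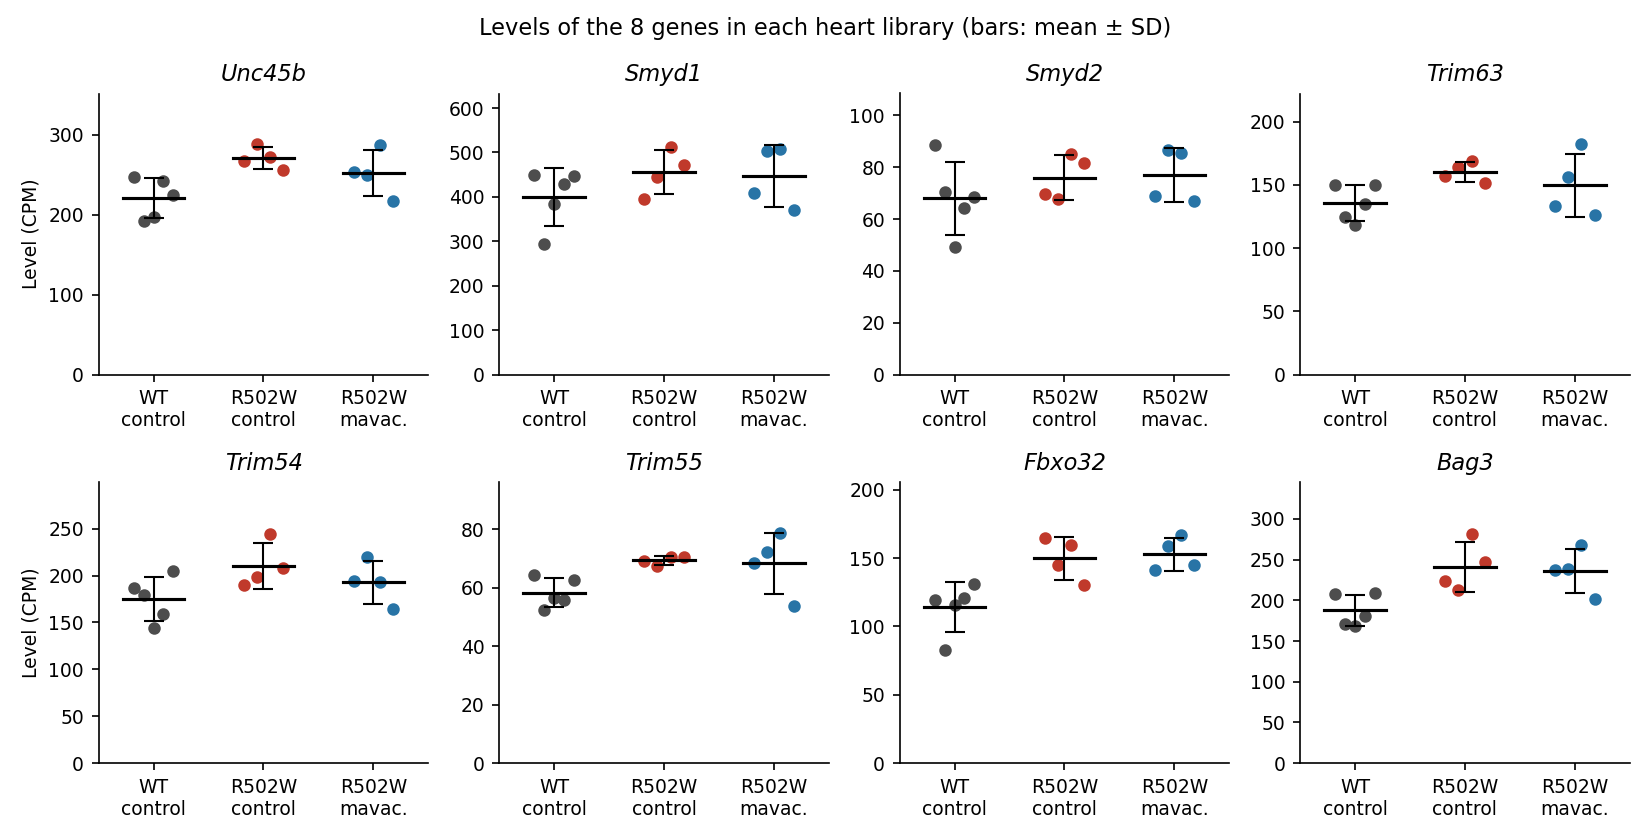
Level of each of the 8 genes in CPM on a linear axis from 0, with 1 point per library, a thick bar for the group mean and thin bars for ± 1 SD (5 WT control libraries and 4 in each R502W group; points are spread sideways in replicate order). The R502W control points of Unc45b, Trim63, Trim55 and Bag3 all lie above every WT control point, and all treated points of Fbxo32 do.

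The comparison of R502W control with WT control asks how the 8 genes stood in hearts with the altered cMyBP-C. Fbxo32 and Bag3 rose, by 1.31-fold and 1.29-fold, and the other 6 did not pass the test. All 8 estimates were positive, from 0.16 to 0.39 on the log2 scale with a median of 0.257, beside a median of -0.0085 over all 15000 genes. The 2 calls are 25.0% of the 8 genes, beside 12.4% of all genes tested that were called in either direction (8.63% as higher and 3.75% as lower); at this list size that is a difference of 1 gene. Of the 8, 6 had an unadjusted p under 0.05, as did 4361 of the 15000 genes.

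Among the folding genes, Unc45b, the myosin chaperone, read 247.2, 192.3, 197.4, 242.0 and 225.0 CPM in the 5 WT control libraries and 266.9, 288.2, 272.6 and 255.9 CPM in the 4 R502W control libraries. Every R502W control library was above every WT control library. The log2 fold change was 0.30 ± 0.098 (95% interval 0.08 to 0.51), and with an adjusted p of 0.0632 in edgeR it did not pass. Smyd1, the myosin-binding methyltransferase, averaged 400.7 ± 65.1 CPM in WT control and 456.6 ± 49.2 CPM in R502W control, with overlapping ranges (log2 fold change 0.19 ± 0.14, adjusted p = 0.386). Smyd2 was the least different of the 8, at 68.1 ± 14.1 and 75.9 ± 8.68 CPM (0.16 ± 0.14, adjusted p = 0.503). WT control 1 read 88.4 CPM of Smyd2, above all 4 R502W control libraries, and WT control 3 read 49.1 CPM.

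The 3 MuRF genes differed from WT by like amounts, and none passed. Trim63 (MuRF1), the ligase best known for thick-filament turnover, read 150.2, 124.9, 118.7, 134.8 and 149.6 CPM in WT control and 157.1, 164.0, 169.0 and 151.4 CPM in R502W control. The groups did not overlap, though the nearest libraries, at 150.2 and 151.4 CPM, were close, and the difference was 0.24 ± 0.11 (adjusted p = 0.157). Trim55 (MuRF2), which is associated with titin and microtubules, read 64.5, 52.6, 56.4, 55.7 and 62.5 CPM in WT control and 69.2, 67.4, 70.6 and 70.5 CPM in R502W control. These groups did not overlap either, and the R502W control libraries lay close together (0.25 ± 0.099, adjusted p = 0.111). Trim54 (MuRF3) averaged 175.2 ± 23.7 and 210.3 ± 24.2 CPM, with 2 of 4 R502W control libraries above every WT library (0.26 ± 0.12, adjusted p = 0.147).

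Fbxo32 (atrogin-1) read 119.4, 82.9, 116.0, 120.8 and 131.2 CPM in WT control and 164.9, 144.8, 159.6 and 130.0 CPM in R502W control. R502W control 4 was the lowest of its group and lay just under the highest WT library, and WT control 2 was far below the other 4. The means were 114.1 ± 18.3 and 149.8 ± 15.7 CPM, so that R502W control was higher by 0.39 ± 0.12 (log2; 95% interval 0.14 to 0.65) at an edgeR adjusted p of 0.0457. Bag3 read 207.4, 171.4, 168.9, 180.9 and 209.2 CPM in WT control and 223.2, 212.4, 282.1 and 247.3 CPM in R502W control. All 4 R502W control libraries were above all 5 of WT, with means of 187.6 ± 19.5 and 241.2 ± 30.9 CPM and a log2 fold change of 0.36 ± 0.11 (0.13 to 0.60, adjusted p = 0.0425). Groups did not overlap for Unc45b, Trim63, Trim55 and Bag3, 4 of 8, and for 12.3% of all genes R502W control lay wholly above WT control.

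Both calls lay close to the threshold. With 1 library left out at a time, Fbxo32 stayed called in 3 of 13 runs (without WT control 2, WT control 5 or R502W control 4), its log2 fold change ran from 0.26 to 0.46 and its adjusted p from 0.0345 to 0.131. Bag3 stayed called in 3 of 13 runs (without WT control 1, WT control 5 or R502W mavacamten 4), at 0.28 to 0.41 with an adjusted p of 0.0370 to 0.145. Neither passed with RLE scaling, without the filter on low counts or with only the 2 groups in the fit, and the direction was the same in each of these. Differences between these groups were also more positive in longer genes (Spearman correlation across genes 0.344; genes are not independent replicates). Fbxo32 has the most exonic sequence of the 8, 6976 bases, and Trim54 the least, 1436 bases. With the length trend removed, Fbxo32 stood at 0.27 (adjusted p = 0.092), Bag3 at 0.45 and still called, and Trim54 at 0.41 and called (adjusted p = 0.0325).

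**Figure D2:**
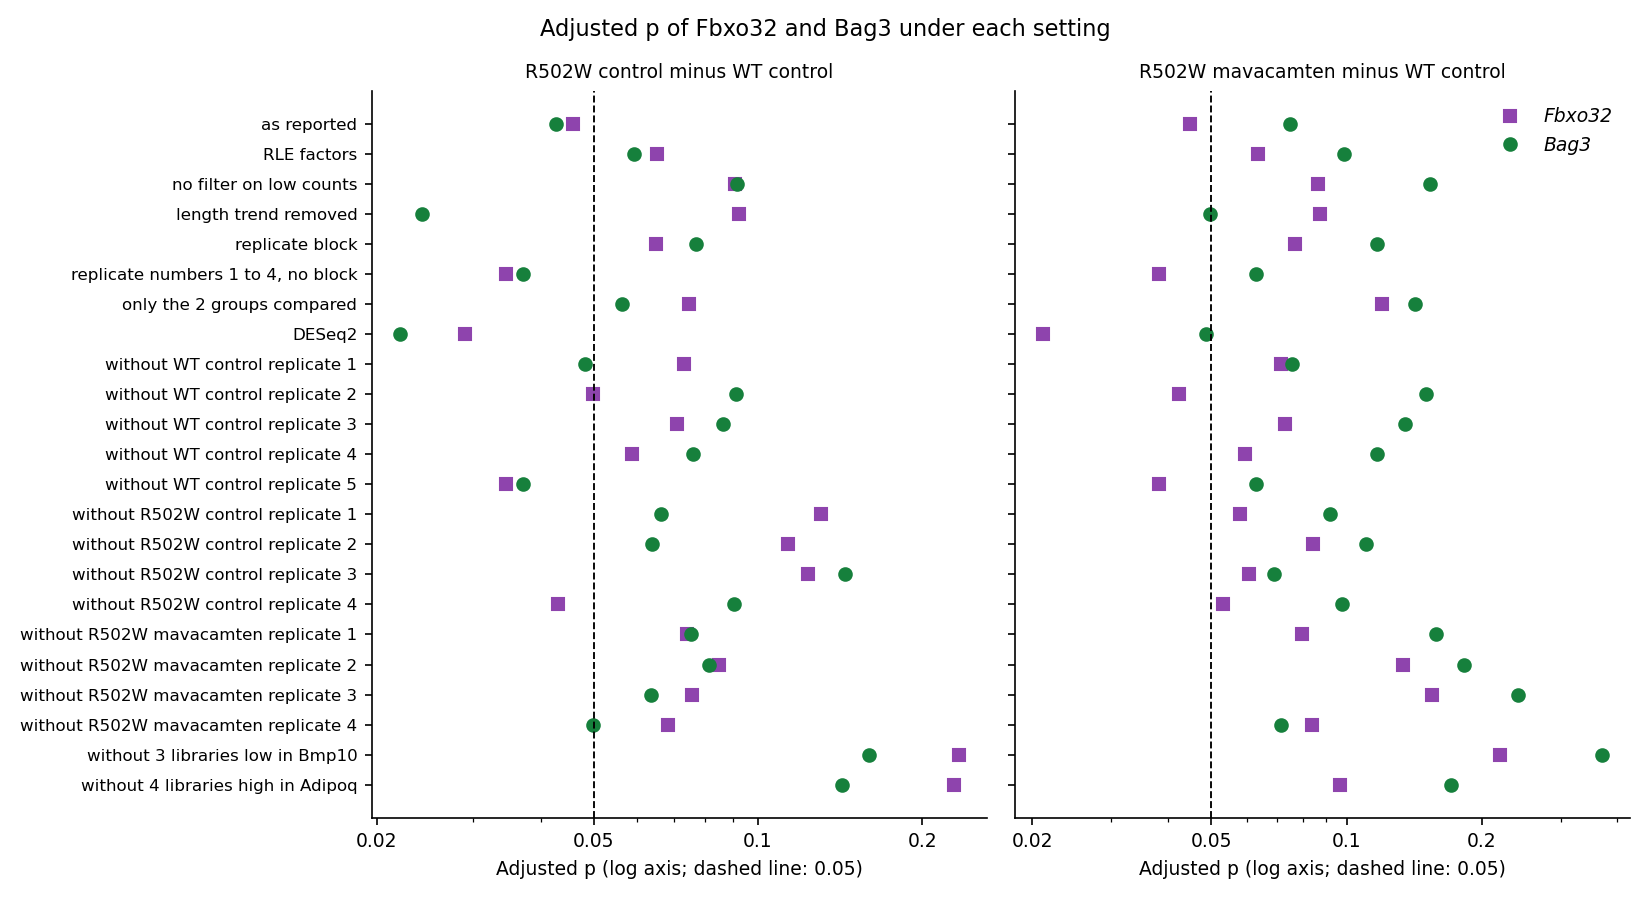
Adjusted p of Fbxo32 (squares) and Bag3 (circles) on a log axis under each setting, for R502W control against WT control on the left and R502W mavacamten against WT control on the right; the dashed line is 0.05. Most points lie to the right of the line. On the left side both genes lie to the left of it in the setting as reported, with DESeq2, without WT control 5 and with replicate numbers 1 to 4 without a block. The last 2 settings use the same libraries.

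The comparison of R502W mavacamten with R502W control asks what the drug changed in these hearts, and none of the 8 genes changed. Their differences ran from -0.13 (Trim54) to 0.03 (Fbxo32) on the log2 scale, 2 positive and 6 negative, with a median of -0.0305. Adjusted p-values from edgeR rounded to 1.0 for all 8, no unadjusted p was under 0.05, and 0% of all genes were called. The 2 groups overlapped for each of the 8, while 2.87% of all genes had no overlap in one direction or the other. Of the 15000 genes, 525 had an unadjusted p under 0.05, and DESeq2 called 6 genes, none of the 8.

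Fbxo32 averaged 152.8 ± 12.2 CPM in treated hearts beside 149.8 ± 15.7 CPM in untreated R502W hearts, and the 95% interval of its log2 fold change was -0.24 to 0.30. Bag3 averaged 236.2 ± 27.1 beside 241.2 ± 30.9 CPM (-0.28 to 0.21). Unc45b averaged 252.0 ± 28.7 beside 270.9 ± 13.5 CPM (-0.33 to 0.12), and 3 of 4 treated libraries were below every untreated R502W library, the exception being R502W mavacamten 3 at 287.5 CPM. Trim63 averaged 149.7 ± 25.1 CPM in treated hearts, Trim55 68.3 ± 10.5 CPM, Trim54 192.8 ± 22.8 CPM, Smyd1 447.1 ± 69.0 CPM and Smyd2 77.0 ± 10.5 CPM. Trim55 varied by 2.15% of its mean (coefficient of variation) in untreated R502W hearts and by 15.4% in treated ones, the widest such contrast of the 8. R502W mavacamten 4 was its low treated library, at 53.9 CPM. The coefficient was lower in treated hearts for Fbxo32 (10.5% to 7.96%) and Bag3 (12.8% to 11.5%), and higher for the rest. Differences in spread were not tested. Over the 8 genes the intervals of the fold change spanned 0.765 to 1.27, so a change of that size in either direction remains within the error. In simulated data of this design 22.4% of genes changed 1.5-fold were called. Those genes were drawn at random over a wide range of levels, so the share is not specific to the 8 genes, whose intervals are given above.

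**Figure D3:**
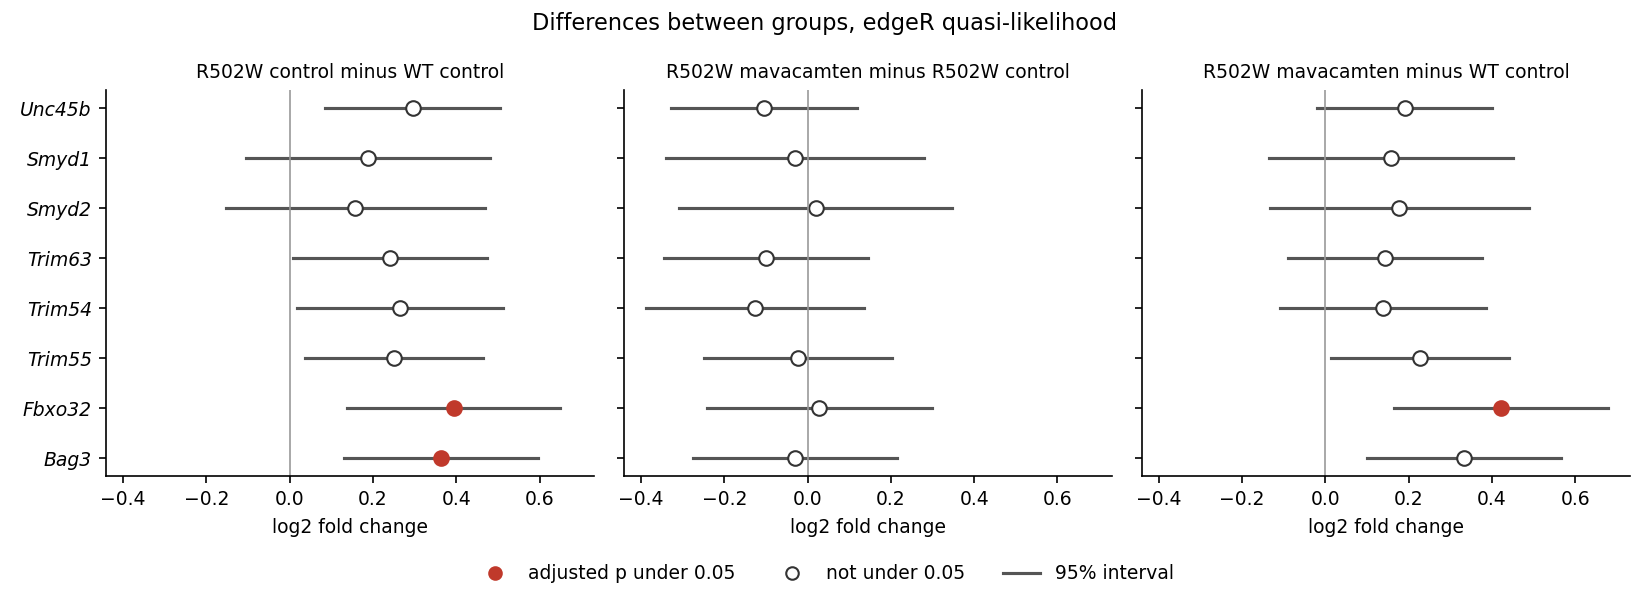
Log2 fold change of each of the 8 genes with its 95% interval in the 3 comparisons (edgeR, all 13 libraries in 1 fit); filled points have an adjusted p under 0.05. All 8 points lie to the right of 0 in both comparisons with WT control, while all 8 intervals in the drug comparison span 0.

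Treated R502W hearts were also set beside WT control, which asks how far they stood from untreated wild-type hearts. Fbxo32 rose, by 1.34-fold, and was the 1 gene of the 8 to pass (12.5%, beside 8.21% of all genes called, 5.93% as higher and 2.29% as lower). This comparison reuses the WT control libraries, so it is not independent of the genotype comparison, and its values are given beside those above. The 8 differences ran from 0.14 to 0.42 with a median of 0.184, against 0.00223 over all genes. Of the 8, 3 had an unadjusted p under 0.05, as did 3877 of all genes.

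Fbxo32 read 140.9, 158.5, 167.1 and 144.6 CPM in the 4 treated libraries, each above every WT library (0.42 ± 0.12, 95% interval 0.17 to 0.68, adjusted p = 0.0449). It was the only one of the 8 without overlap here, and 8.54% of all genes lay wholly above WT control. Bag3 read 236.9, 239.1, 267.5 and 201.3 CPM, with R502W mavacamten 4 inside the WT range (0.33 ± 0.11, adjusted p = 0.0747). Trim55 read 68.4, 72.3, 78.8 and 53.9 CPM, where again R502W mavacamten 4 was the low library (0.23 ± 0.099, adjusted p = 0.167). Unc45b read 253.1, 250.1, 287.5 and 217.2 CPM (0.19 ± 0.098, adjusted p = 0.239). Trim63 (0.14), Trim54 (0.14), Smyd1 (0.16) and Smyd2 (0.18) had adjusted p-values from 0.437 to 0.496. The Fbxo32 call stayed in 2 of 13 runs with 1 library left out (WT control 2 or WT control 5), with a log2 fold change of 0.29 to 0.48. With the length trend removed, Bag3 was called in its place, at 0.42, and Fbxo32 stood at 0.31.

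The 8 genes tended to be high or low together in a library, over and above the group. R502W mavacamten 4 was the lowest treated library for 7 of the 8 genes and R502W mavacamten 3 the highest for 6. WT control 2 and WT control 3 were the lowest WT library for 4 genes each, WT control 1 was the highest for 5, and R502W control 3 was the highest of its group for 6. The mean log2 deviation of the 8 genes from their group means was -0.217 in R502W mavacamten 4, -0.166 in WT control 2 and 0.174 in both WT control 1 and R502W mavacamten 3.

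The summed cardiomyocyte markers moved in the same direction in these 4 libraries, with log2 deviations of -0.216, -0.27, 0.273 and 0.217. Their sum also stood higher in R502W hearts, with a median of 45630 CPM in WT control, 54890 in R502W control and 58710 in R502W mavacamten. Myh6 is 1 of the 6 markers and makes up much of this sum. Myh6 and Myh7 together averaged 23668 CPM in WT control and 34953 in R502W control. Myh7, which is not among the 6, averaged 170.6 and 1768 CPM. Of the 6 markers, 3 had a positive genotype difference and 1, Myh6, was called, and none was called with the length trend removed. The 5 endothelial markers summed to 472.3 to 634.3 CPM in WT control, 723.1 to 855.4 in R502W control and 551.3 to 763.9 in R502W mavacamten, while the fibroblast, macrophage and smooth muscle sums overlapped between WT control and R502W control. The part of these markers in the differences above was not tested, and in whole-heart RNA fewer cells of a type and less RNA per cell cannot be told apart. Without the 3 libraries low in Bmp10 the genotype differences were 0.32 for Fbxo32 (adjusted p = 0.234) and 0.34 for Bag3 (adjusted p = 0.160). Without the 4 libraries high in Adipoq they were 0.20 for Fbxo32 (adjusted p = 0.228) and 0.29 for Bag3 (adjusted p = 0.143). Neither gene was called in either setting. These libraries were chosen after the values had been seen.

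**Figure D4:**
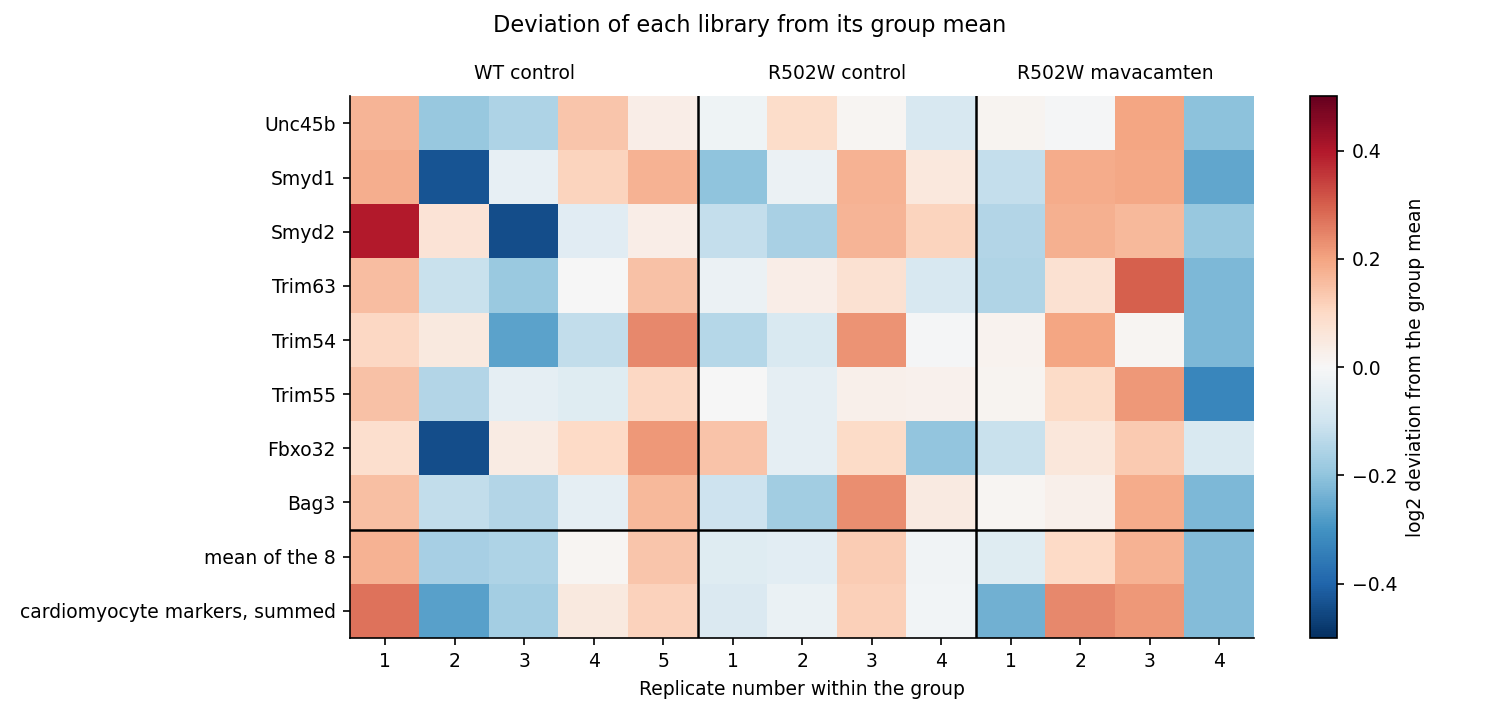
Log2 deviation of each library from the mean of its own group for the 8 genes, for their mean and for the summed cardiomyocyte markers (colour scale from -0.5, blue, to 0.5, red; columns are replicates within each group). R502W mavacamten 4 is blue in all 8 gene rows and in the marker row, while WT control 1 and R502W mavacamten 3 are red or near white in all of them.

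The nearest neighbours of each gene were taken as the 2 genes with the highest Pearson r of log2 CPM across the 13 libraries, out of the 13689 genes whose mean reached 1 CPM. Fbxo32 had the closest, Ppfibp2 (r = 0.984) and Pakap (0.978). For Smyd1 they were Pde4a (0.969) and Oxct1 (0.967), the latter an enzyme of ketone body use, and for Smyd2 Myl3 (0.958), the ventricular essential myosin light chain, and Mcrip2 (0.937). Unc45b ran closest to Dhx29 (0.965) and Xpo5 (0.941), Trim63 to Ttc17 (0.956) and Gfm2 (0.948), Trim54 to Pacsin3 (0.942) and Baiap2l1 (0.934), Trim55 to Mmachc (0.958) and Klhl30 (0.954), and Bag3 to Itpkb (0.959) and Ube2o (0.959). These are the highest of many values over libraries that share their groups and their depth, and they are a description only.

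The genes around the 8 were taken from 6 lists of related genes, and edgeR called no gene of any list between treated and untreated R502W hearts. The counts below stand beside shares over all genes of 12.4% called in R502W control and 8.21% in treated hearts, each against WT. Those shares are 1856 and 1232 of the 15000 genes. Removal of the length trend left 1312 and 630 genes called, so calls became fewer over all genes and not only in the lists. In R502W control against WT control, 3 of 14 folding cofactors rose and 1 fell, with a list median of 0.114. Hsp90aa1, the inducible form of HSP90, went from 104.5 ± 12.5 to 189.3 ± 26.0 CPM (0.86 on the log2 scale, edgeR adjusted p = 0.00158), and it stayed called in all 22 alternative settings. Hspa4, an HSP70 nucleotide exchange factor, rose by 0.35 and Hsp90ab1, the constitutive HSP90, by 0.30. Smyd3, a relative of Smyd1 at a low level, fell by 0.54, from 7.15 to 4.90 CPM. The genotype calls of Smyd3 and Hspa4 were each lost in 4 of 22 alternatives: Smyd3 without R502W control 1, Hspa4 without R502W control 2, and both with the replicate block and without the low-Bmp10 or the high-Adipoq libraries. Treated against WT, only Hspa4 of the 14 was called (0.34, adjusted p = 0.0254), in 8 of 13 runs with 1 library left out (not without WT control 3, R502W control 2 or R502W mavacamten 1, 2 or 3), and Hsp90aa1 stood at 139.7 ± 25.6 CPM (0.42, adjusted p = 0.0672).

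Of 22 other muscle ubiquitin ligase genes, 6 rose and none fell in R502W control hearts (median 0.0994). With the length trend removed, 5 rose and 1 fell, and the median was -0.0102. Fbxo40, a muscle F-box protein, went from 160.4 ± 25.1 CPM in WT control to 296.0 ± 19.9 CPM in R502W control and 269.1 ± 32.0 CPM in R502W mavacamten. Its log2 fold changes were 0.88 (adjusted p = 0.000588) and 0.75 (adjusted p = 0.00393), larger than that of any of the 8 genes, and the genotype call stayed in all 22 alternatives. Klhl40, an adaptor that stabilises thin-filament proteins, rose by 0.63 and the ubiquitin-conjugating enzyme Ube2g1 by 0.42. In treated hearts against WT, 3 of the 22 rose and none fell, Asb2 with Fbxo40 and Klhl40. Asb2, a ligase subunit that acts on filamins, went from 325.6 ± 32.1 to 487.8 ± 104.8 CPM there (0.58, adjusted p = 0.0210). That call was lost without R502W mavacamten 2 or 3, and the Klhl40 call against WT without R502W mavacamten 1, 2 or 3. The genotype calls of Klhl40 and Ube2g1 were lost without the low-Bmp10 libraries.

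Of 21 partners and relatives of BAG3, 6 rose and none fell in R502W control hearts, with a median of 0.215. Flnc, which encodes the filamin that BAG3 clears, rose most in the list, from 256.1 ± 51.3 to 661.3 ± 109.6 CPM (1.37, adjusted p = 0.00015), and it stood at 547.0 ± 22.6 CPM in treated hearts (1.10 against WT, adjusted p = 0.00144). Synpo2l, a relative of the BAG3 partner synaptopodin-2, rose by 0.87, and the small heat shock gene Hspb7 by 0.47. Hspb8, the small heat shock protein best known as BAG3's partner, did not pass, with 330.0 CPM in WT control and 387.4 CPM in R502W control (0.23, adjusted p = 0.215). Treated hearts had 4 of the 21 above WT, among them Hspb6 (0.40) and Synpo2l (0.49), but with 1 library left out the Hspb6 call stayed in 3 of 13 runs (without WT control 1, R502W control 4 or R502W mavacamten 4) and the Synpo2l call in 1 of 13 (without R502W mavacamten 2). The genotype call of Hspb7 was lost without the low-Bmp10 libraries.

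The 20 genes of the FOXO and glucocorticoid axis, which drives Trim63 and Fbxo32 in wasting muscle, did not move one way: 3 rose and 2 fell, with a median of 0.0141. Per1, a clock gene that glucocorticoids also induce, fell by 1.56, from 73.4 to 24.8 CPM (adjusted p = 0.00846), and stood at 24.9 CPM in treated hearts; the genotype call was lost without the 3 libraries low in Bmp10, and the call against WT there and without R502W mavacamten 2. Nr3c1, the glucocorticoid receptor, rose by 0.49 and Ddit4, a glucocorticoid-induced gene, by 0.77. Nr3c1 was not called without R502W control 2, and Ddit4 not without WT control 3 or R502W control 2, 3 or 4. Foxo1 (0.01) and Foxo3 (0.02) did not pass, nor did the glucocorticoid targets Tsc22d3 (-0.28) and Fkbp5 (-0.35, adjusted p = 0.376), named after their values were seen. In treated hearts against WT, Nr3c1 rose, and Per1 and the autophagy gene Map1lc3b fell (-0.24). With 1 library left out, Nr3c1 stayed called there in 7 of 13 runs and Map1lc3b in 4 of 13.

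Of the 31 proteasome subunits, the end point of the ligases' substrates, 6 fell and none rose in R502W control hearts, with a median of -0.128. Psmb2 fell by 0.38, from 50.4 to 38.6 CPM, Psma3 by 0.39 and Psmb3 by 0.39. Psma3 was not called without R502W control 1 or 2, and Psmb3 not without R502W control 1, 2 or 3. These are short transcripts, and with the length trend removed 3 of the 31 were called lower and Psmb2 no longer passed. Against WT, treated hearts had 3 of 31 lower, Psmb2, Psma6 and Psmb1, and 1 of 31 with the length trend removed. With 1 library left out, Psma6 stayed called in 6 of 13 runs, Psmb1 in 4 of 13 and Psmb2 in 13 of 13.

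**Figure D5:**
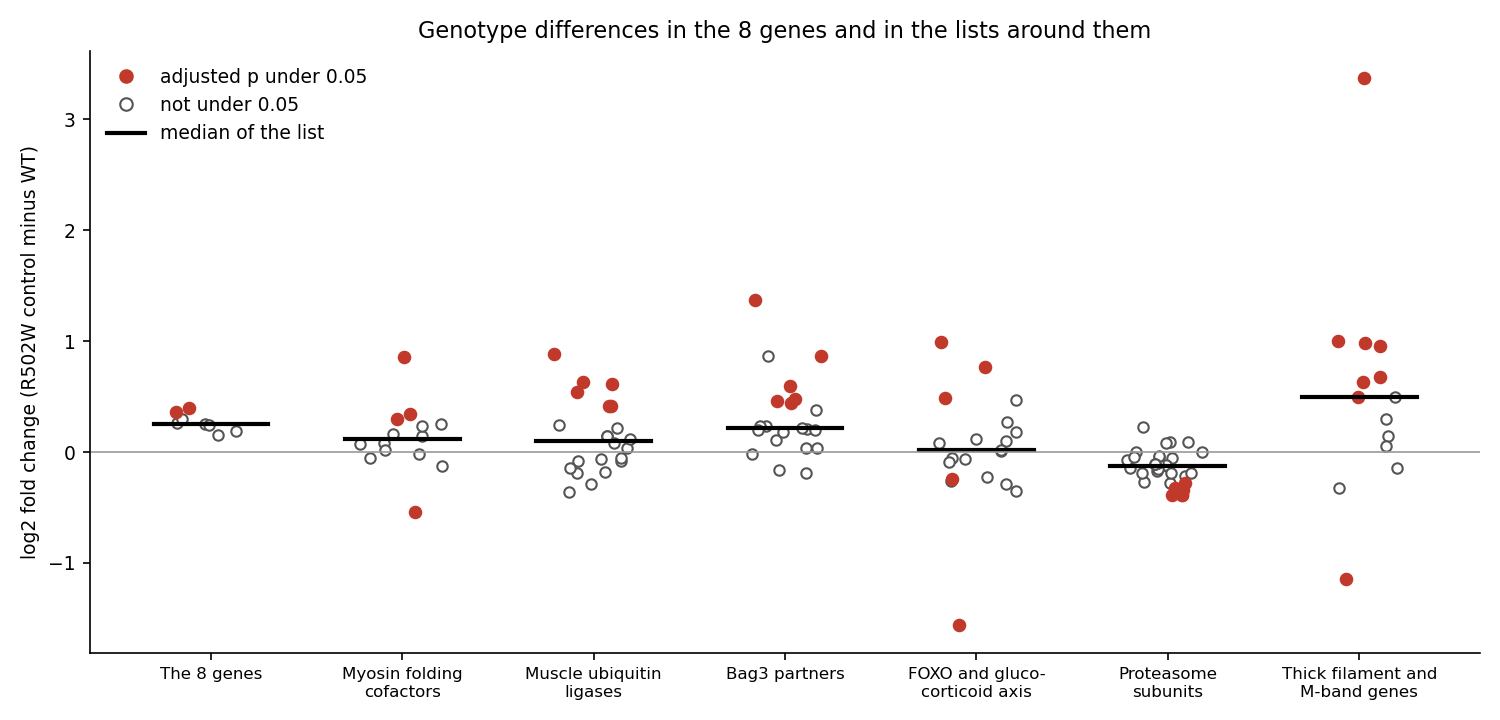
Log2 fold change of R502W control minus WT control for the 8 genes and for each list of related genes, 1 point per gene, filled where the adjusted p is under 0.05, with a bar at the list median. The 8 genes lie in a narrow band above 0, while the called proteasome subunits all lie below it and single genes such as Flnc and Myh7 lie far above.

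The last list held thick-filament and M-band genes, and Tcap, picked as possible clients of the proteins that the 8 genes encode. Whether each is a client was not tested. Of its 14 genes 7 rose and 1, Tcap, fell in R502W control hearts, with a median of 0.498 beside 0.257 for the 8. With the length trend removed the medians were 0.327 and 0.295. Myh7, the slow myosin heavy chain, rose by 3.37 on the log2 scale and stood at 3.05 in treated hearts against WT. Tcap, the titin cap protein, which MuRF proteins bind, belongs to the Z-disc rather than to the thick filament or M-band. It fell by 1.14, from 1327 to 601 CPM. In treated hearts against WT, 9 of the 14 rose and 1 fell, and 5 and 1 with the length trend removed.

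Relative to myosin message, the 2 myosin-binding factors were lower in R502W hearts. Their own levels were not lower, with positive estimates against WT in both R502W groups. Myh6 and Myh7 together made up 23668 ± 3899 CPM in WT control, 34953 ± 1541 CPM in R502W control and 36265 ± 5732 CPM in R502W mavacamten. Unc45b stood at 9.41 ± 0.776 CPM per 1000 CPM of Myh6 plus Myh7 in WT control, 7.76 ± 0.365 in R502W control and 7.03 ± 0.947 in R502W mavacamten. Smyd1 stood at 16.9 ± 0.886, 13.1 ± 1.2 and 12.4 ± 0.769. Neither R502W group overlapped WT control for either gene. The exact two-sided permutation p was therefore 0.0159 in each of these 4 comparisons. That is the smallest p that 4 against 5 libraries can give (Benjamini-Hochberg adjusted p = 0.0239 over 6 comparisons). The adjustment does not cover the choice of the ratio, which was made with the values known. The 4 comparisons share the WT control libraries and the myosin sum, so they are not independent of each other. Treated and untreated R502W hearts overlapped, with exact permutation p-values of 0.229 for Unc45b and 0.371 for Smyd1.

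This ratio was chosen after the values had been seen, and it falls where myosin message rises while the 2 genes keep their level. Any gene that rises less than myosin message falls on this scale, so the fall is not particular to these 2 genes. Over all genes the median log2 fold change against WT was -0.0085 in R502W control and 0.00223 in treated hearts, below those of Unc45b and Smyd1. The ratio was not computed for other genes. With the length trend removed, the genotype differences were 0.39 for Myh6, 0.27 for Unc45b and 0.16 for Smyd1. Myh6 was then no longer called, and the ratio itself was not corrected for length. With 1 library left out at a time, the 9 runs of each comparison with WT gave exact permutation p-values of 0.0286 to 0.0357. Because the groups did not overlap, each run could only give the smallest p possible for its number of libraries. These runs therefore add no test of the difference. Without the 3 libraries low in Bmp10, the ratio in R502W control minus that in WT control was -1.67 for Unc45b and -3.04 for Smyd1, and without the 4 libraries high in Adipoq it was -1.31 and -3.23. Exact permutation p-values were then 0.0571 and 0.1 in turn for both genes, in treated and in untreated R502W hearts against WT, and these are the smallest that so few libraries can give.

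Reads of overlapping genes bear on a few of these levels, since no source used here gave the strand setting of the authors' counting. Krcc1, on the other strand from Smyd1, reached at most 9.32% of the mean Smyd1 level, and the antisense gene Gm37422 at most 13.2% of the Smyd2 level. Other genes overlapping the 8 stayed at or under 2.64 CPM, and Trim63 overlaps none. On GRCm38 the 8 genes lie at 11:82910550-82943403 (Unc45b), 6:71213940-71322233 (Smyd1), 1:189880492-189922363 (Smyd2), 4:134315120-134329629 (Trim63), 5:31116712-31137630 (Trim54), 3:19644474-19692421 (Trim55), 15:58175879-58214932 (Fbxo32) and 7:128523616-128546981 (Bag3).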

How the data were processed

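Libraries were poly(A)-selected and strand-specific, per the labels' protocols. The authors deposited expected counts per Ensembl gene, estimated with RSEM on GRCm38 per the submitters' processing notes, which also name cutadapt, FastQC and DESeq2 without versions. No source used here gave the aligner or the strand setting. Symbols, coordinates and exonic lengths came from GENCODE M21 by gene ID (55230 of 55471 matched).

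Expected counts were rounded and analysed with edgeR 4.0.16 in R 4.3.3: filterByExpr (minimum count 10, minimum total 15), TMM factors, and a quasi-likelihood fit of group means over all 13 libraries, with Benjamini-Hochberg adjustment over the 15000 genes kept. SE is the log2 fold change divided by the square root of F, and intervals are 95%. No 2 libraries of a group agreed within sampling noise (22 pairs, chi-square per degree of freedom at least 7.6). The alternatives were RLE factors, no filter, removal of the length trend (lowess, span 0.3), a replicate block, only the 2 groups compared, DESeq2 1.42.0 and leaving out each library. On simulated counts of 14813 genes for the genotype comparison, edgeR called 32.8% of genes moved 1.5-fold and 73.1% of genes moved 2-fold, with 2.86% of its calls false. For the treatment comparison (14820 genes) it called 22.4% and 71.6%.

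The 8 genes and all lists were chosen with earlier results of these data known. List genes named are the 3 called genes with the smallest adjusted p per list and comparison. One gene that this rule picks is not reported here. Hsp90ab1, Hspb8, Foxo1, Foxo3, Tsc22d3, Fkbp5 and the markers were named after their values were seen.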

Additional observations from a re-analysis of the deposited data

How the results depend on the processing

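The genotype count of 1856 called genes was 963 with the replicate block, 404 without the 3 libraries low in Bmp10, 1145 without the 4 libraries high in Adipoq, and 866 to 1870 with 1 library left out (1040, 866 and 914 without R502W control 1, 2 and 3). The count against WT in treated hearts, 1232, was 740 without the filter, 630 with the length trend removed, 349 with the block, 216 with only the 2 groups, 86 and 653 without the low-Bmp10 and high-Adipoq libraries, and 359 to 1213 with 1 library left out. DESeq2 called 6 genes between treated and untreated R502W hearts, where edgeR called 0.

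Of the 8 genes, the genotype count of 2 became 0 with RLE factors, without the filter, with the replicate block, with only the 2 groups and without either set of libraries, 3 with DESeq2, which added Unc45b (adjusted p = 0.0448), and 0 to 2 with 1 library left out. In treated hearts against WT the count of 1 became 0 in the same 6 settings, 2 with DESeq2 (Fbxo32 and Bag3), and 0 to 1 with 1 library left out. Directions were the same in every setting for the genotype comparison. Against WT in treated hearts only Trim63 turned, to -0.0246 without the low-Bmp10 libraries. In the drug comparison uncalled values near 0 turned sign: Smyd2 to -0.0611 without the low-Bmp10 libraries, Trim55 to 0.0711 and Bag3 to 0.000598 without the high-Adipoq libraries, and, with 1 library left out, Smyd1 (-0.0925 to 0.0487), Smyd2 (-0.0338 to 0.0789), Trim55 (-0.0852 to 0.0735), Fbxo32 (-0.0342 to 0.0776) and Bag3 (-0.0879 to 0.0533). The cause was not tested.

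The replicate numbers 1 to 4 carried no sign of pairing: same-numbered libraries had correlations of deviations from -0.317 to 0.252, so the block shows only how the count moves.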
